A study of Mus musculus with 18 samples.

Results

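The striatum of saline-injected mice was compared with the frontal cortex of saline-injected mice. The arrays were chosen by their titles, which read striatum control for 3 arrays and frontal cortex control for the other 3, so that 6 of the 18 arrays of the study entered the comparison and no array from an MPTP-treated mouse did. The mice of all groups were C57BL/6J males, 14 weeks old. In the study 3 mice received MPTP, a toxin that damages dopamine neurons, at 30 mg/kg intraperitoneally once a day for 5 days, 3 mice received saline intraperitoneally, and striatum, frontal cortex and midbrain were dissected 4 days after the last MPTP injection. The 6 arrays therefore hold pieces of tissue with every cell type of the region, hybridised as biotin-labelled cRNA to an Affymetrix array on which several probes, a probe set, report a transcript. With 3 saline mice, the samples of both regions would come from the same animals. The labels do not say whether a replicate number stands for the same mouse in both regions. The 6 samples were treated as unpaired, and the p-values measure the spread between these samples.

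Most neurons of the striatum are medium spiny neurons, which release GABA and receive dense dopamine input from the midbrain. Those of the direct pathway carry the dopamine D1 receptor with substance P and dynorphin, and those of the indirect pathway carry the D2 receptor with enkephalin, while both pass the dopamine signal on through cAMP, protein kinase A and the phosphoprotein DARPP-32. The frontal cortex is built mainly of layered glutamatergic projection neurons with several classes of GABA interneuron, and its projection neurons send excitatory axons to the striatum, where their terminals but not their cell bodies lie.

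The promoters of 4 genes that mark the regions are shown first, because each holds a form of the cAMP response element, the DNA motif of the CREB family. They are Gpr6, an orphan receptor of indirect pathway neurons whose low level in frontal cortex was taken as only a bound, Tac1, the substance P precursor of direct pathway neurons, Vip, an interneuron peptide, and Cck, the cholecystokinin precursor of cortical neurons. The windows run from 250 bases before to 50 bases after the annotated start and are RefSeq sequence of the mouse build GRCm38.p6, printed 5′ to 3′ on the gene's strand with the matching letters in capitals.
Gpr6, chr10:41072241-41072540, minus strand: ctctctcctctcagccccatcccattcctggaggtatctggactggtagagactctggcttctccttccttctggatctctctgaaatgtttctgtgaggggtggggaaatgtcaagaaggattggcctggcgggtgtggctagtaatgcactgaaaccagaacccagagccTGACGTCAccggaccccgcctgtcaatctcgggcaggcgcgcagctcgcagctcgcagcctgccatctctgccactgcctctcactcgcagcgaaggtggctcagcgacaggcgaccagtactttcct
Tac1, chr6:7554811-7555110, plus strand: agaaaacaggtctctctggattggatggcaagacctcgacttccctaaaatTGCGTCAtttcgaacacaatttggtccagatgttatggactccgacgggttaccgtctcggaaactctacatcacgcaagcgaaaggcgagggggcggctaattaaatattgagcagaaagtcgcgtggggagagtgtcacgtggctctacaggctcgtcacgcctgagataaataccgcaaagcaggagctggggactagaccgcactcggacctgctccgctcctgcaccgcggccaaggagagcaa
Vip, chr10:5638968-5639267, plus strand: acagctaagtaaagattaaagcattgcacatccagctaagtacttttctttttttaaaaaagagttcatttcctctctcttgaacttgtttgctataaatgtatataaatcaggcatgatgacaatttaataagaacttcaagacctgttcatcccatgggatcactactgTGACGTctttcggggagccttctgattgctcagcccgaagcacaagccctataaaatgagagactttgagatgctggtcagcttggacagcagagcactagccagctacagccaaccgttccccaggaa
Cck, chr9:121495645-121495944, minus strand: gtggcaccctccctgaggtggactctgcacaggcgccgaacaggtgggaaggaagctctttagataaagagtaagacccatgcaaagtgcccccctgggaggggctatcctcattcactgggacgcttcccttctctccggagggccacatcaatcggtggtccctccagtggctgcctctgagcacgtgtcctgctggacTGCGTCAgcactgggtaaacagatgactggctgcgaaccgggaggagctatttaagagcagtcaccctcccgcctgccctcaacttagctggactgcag
The forms searched, on both strands, were TGACGTCA, its first 6 letters TGACGT, which lie inside the full form, and TGCGTCA. Gpr6 held the full form 78 to 71 bases upstream of its start, and Vip held TGACGT 79 to 74 bases upstream. The form TGCGTCA lay 199 to 193 bases upstream of the start in Tac1 and 49 to 43 bases upstream in Cck. Of the 32851 promoter windows in the RefSeq table, 1.79% held TGACGTCA, 2.12% held TGCGTCA and 7.51% held TGACGT. Windows were found for 12 of the 20 genes with the largest measured excess in striatum, and of their 19 windows only that of Gpr6 held the full form and none held TGCGTCA. Of the 24 windows of 16 of the 20 genes with the largest measured deficit, none held TGACGTCA, that of Cck held TGCGTCA, and windows of Bdnf, Car10 and Vip held TGACGT. A match describes letters in the window and is neither a site nor a cause.

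The deposited values are log2 signals, on which a difference of 1 is a 2-fold change in signal. The 6 arrays had medians of 5.14 to 5.20. Across all probe sets, arrays of striatum correlated with each other at r = 0.996 and arrays of frontal cortex at 0.995 to 0.996, against 0.974 to 0.978 between the regions. The probe sets with 1 named gene represented 18194 genes, each by the probe set with the highest mean over the 18 arrays. A gene was tested where its mean in either region reached 5.18, the median of the probe-set values on the 6 arrays, which 11516 genes did, and was called at a Benjamini-Hochberg adjusted p under 0.05 in limma. The median standard deviation between the 3 arrays of a region was 0.09 in striatum and 0.10 in frontal cortex.

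Striatum differed from frontal cortex in 5554 of the 11516 genes, or 48.2%, with 2601 genes (22.6%) higher in striatum and 2953 (25.6%) lower, and 6191 genes had an unadjusted p under 0.05. The counts of list members given below are to be read beside these shares of all tested genes. The gene lists were chosen with earlier results of these data known, so the counts describe the lists and are not an independent test. The groups did not overlap, with every striatum array on the same side of every frontal cortex array, for 6524 genes (56.7%). Most differences were small, since the called genes had a median absolute difference of 0.46 and 3046 of them (54.8%) lay under 0.5. By at least 1 on the log2 scale there were 414 called genes higher and 517 lower, by at least 2 there were 97 and 94, and by at least 3 there were 44 and 14. On all 3 arrays of the lower region, 144 of the genes higher in striatum and 165 of those lower lay under 5.18, where the level was taken as only a bound. The value 5.18 is the filter and not a measured detection limit. For such genes a lower limit of the difference, taken against 5.18, is given beside the measured value. With them at their limit, 35 genes were higher by at least 3 and 12 lower. A gene under 5.18 in a region was tested only because the other region reached it, so that a list member of this kind could be called in that direction alone. The plot of the leading genes shows every array, and the order of bounded genes in it is that of the measured values.

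**Figure D1:**
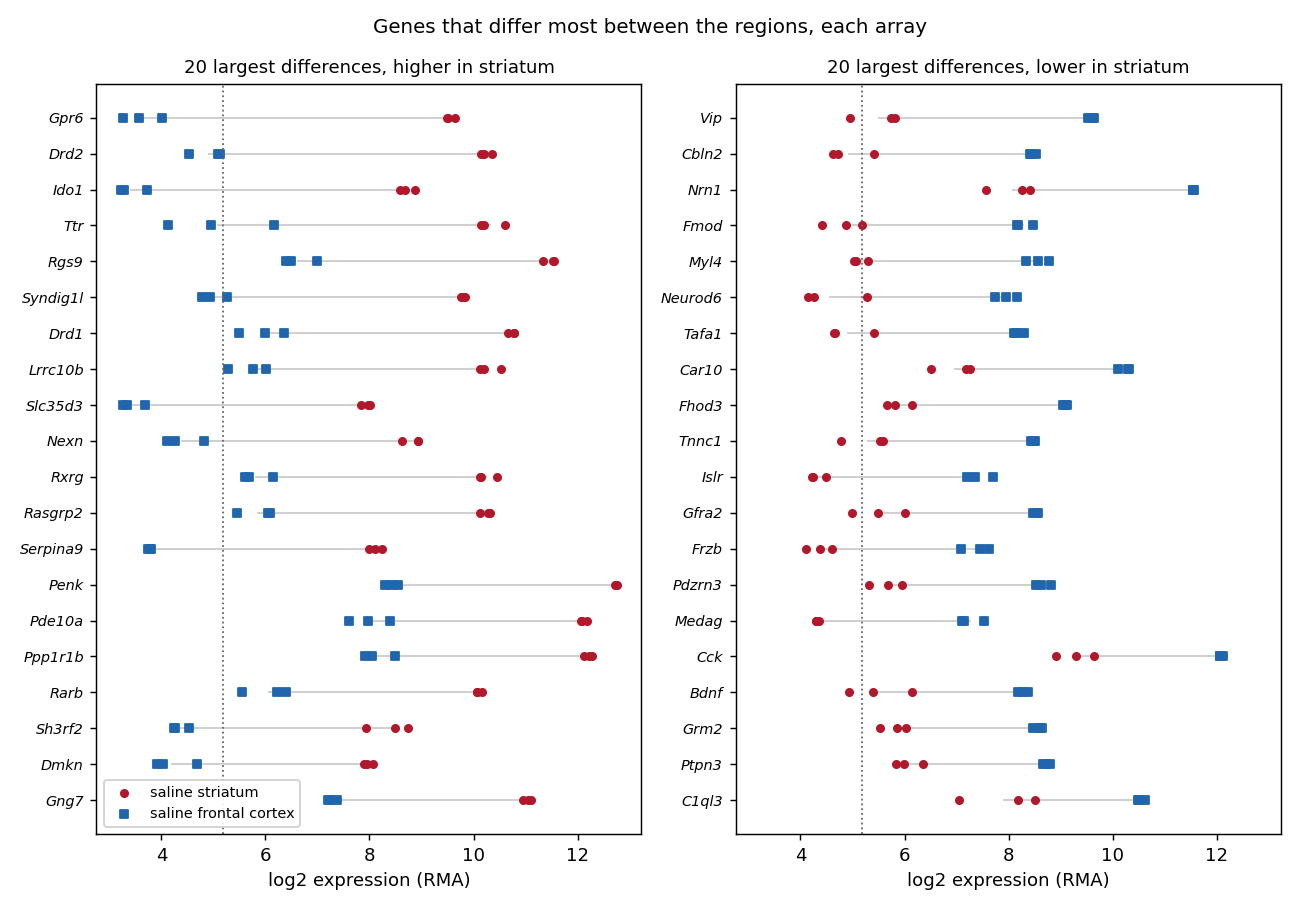
Log2 signal of the 20 called genes with the largest measured excess in striatum and the 20 with the largest measured deficit, with a point for each of the 3 saline striatum arrays and the 3 saline frontal cortex arrays. Predicted genes and Riken clones were passed over. The dotted line marks 5.18, the filter value under which a level was taken as only a bound, and no gene shown has overlapping groups.

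The dopamine D1 and D2 receptor genes were among the genes highest in striatum relative to frontal cortex, and the groups lay far apart for both. Drd3 and Drd4 lay under the filter value on every array of both regions and were not tested, and Drd5 was not among the genes represented. Drd1, the D1 receptor of the direct pathway, gave 10.67, 10.77 and 10.78 on the striatum arrays, against 5.99, 5.49 and 6.35 on the frontal cortex arrays, a difference of 4.80 ± 0.14 (SE, adjusted p = 4.4e-15), or 27.9-fold. Drd2, the D2 receptor of the indirect pathway, gave 10.36, 10.20 and 10.15, against 5.08, 4.53 and 5.12 (5.32 ± 0.13, adjusted p = 3.1e-16), and since frontal cortex lay under 5.18 the excess was at least 33.4-fold. Gpr6 gave 9.64, 9.49 and 9.50 in striatum, against 3.57, 3.27 and 4.02 in frontal cortex, at least 20.7-fold by the bound. In tissue pieces a gene can be lower because fewer cells of a type are present or because each holds less of its RNA, and these cannot be told apart here.

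Among 11 genes listed for the direct pathway, 9 were tested and 8 of them rose, against the 22.6% of all tested genes, with a median difference of 2.01 where that of all tested genes was 0.00. On every frontal cortex array 3 of the 8 lay under 5.18, and these could be called only as higher. Tac1 gave 11.43, 11.38 and 11.33 in striatum, against 7.80, 7.56 and 8.02 in frontal cortex (12-fold). Pdyn, the dynorphin precursor, gave 7.34, 7.53 and 7.61, against 5.72, 5.60 and 5.94 (3.33-fold). The peptides were thus higher on all striatum arrays, Tac1 by more than Pdyn in fold. The transcription factor Isl1 was 3.13 higher (limit 1.72), Slc35d3, a membrane transporter of these neurons, 4.51 (limit 2.76), the transcription factor Ebf1 2.01 (limit 1.5), the extracellular glycoprotein gene Reln 1.27 and the mitochondrial carrier Sfxn1 0.82. Eya1, also on the list, did not pass the test (0.06, adjusted p = 0.706). The muscarinic receptor gene Chrm4 missed the filter, with 4.91, 5.18 and 5.33 in striatum, against 4.22, 4.33 and 4.14 in frontal cortex, so that its groups did not overlap although it was not tested.

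Of 9 genes listed for the indirect pathway 6 were tested, and 3 rose and 1 fell (median 2.32). Of the 3, 2 lay under 5.18 on every frontal cortex array and could be called only as higher. Penk, the enkephalin precursor, gave 12.75, 12.73 and 12.72 in striatum, against 8.43, 8.30 and 8.55 in frontal cortex, a difference of 4.31 ± 0.06 (SE, 19.8-fold). The striatum arrays were nearly identical for it. The angiogenesis-related membrane protein gene Plxdc1 was lower in striatum by 0.58, and neither the phosphatase Ptprm (-0.07) nor the kainate receptor subunit Grik3 (0.33, adjusted p = 0.162) passed, but Grik3 did without frontal cortex replicate 1 (0.54, adjusted p = 0.0179).

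All 32 tested genes among 35 listed for spiny neurons of both pathways rose, by 0.41 to 5.30, with a median of 2.92. Among them 2 lay under 5.18 on every frontal cortex array. The median of the 32 was 10.92, 10.90 and 10.75 on the striatum arrays, against 8.10, 8.01 and 8.40 on the frontal cortex arrays. Several signal transducers were among the larger differences, although the largest measured one was that of Ido1, given below. Rgs9, which speeds the shut-off of G proteins, gave 11.54, 11.53 and 11.34 in striatum, against 6.50, 6.40 and 7.0 in frontal cortex (28.6-fold). Ppp1r1b, the gene of DARPP-32, gave 12.27, 12.21 and 12.12, against 8.05, 7.91 and 8.49 (16.6-fold). Both separated the regions on every array by several log2 units. Rasgrp2, an activator of Rap1, differed by 4.38, the synapse differentiation relative Syndig1l by 4.81, Lrrc10b by 4.59, Rasd2, a small G protein known as Rhes, by 3.31, the actin cross-linker Actn2 by 3.40 and the sodium channel subunit Scn4b by 3.02. Ido1, which degrades tryptophan, gave 8.87, 8.69 and 8.59 in striatum, against 3.23, 3.29 and 3.73 in frontal cortex (5.30, limit 3.54), and Serpina9, a serine protease inhibitor, was 4.34 higher (limit 2.94). At the low end stood the calmodulin-binding peptide gene Pcp4 (1.21) and Rgs4 (0.41). Arpp21, a cAMP-regulated phosphoprotein gene, was 2.0 higher by its probe set, but of 4 other probe sets that reached the filter value 1 read 2.18 and 3 read -0.99, -0.58 and -0.66.

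The 3 striatum arrays were not equivalent for these genes. Replicate 1 was the highest array for 20 of the 32 and replicate 2 for 12, while replicate 3 was the lowest for 29. In frontal cortex, replicate 3 was the highest for 22 and replicate 2 the lowest for 25. The 22 glutamatergic genes described further on ran the other way in striatum, with replicate 3 highest for 17 of them and replicate 1 lowest for 14. The part of cell mixture in this order was not tested. Without striatum replicate 3 the comparison called 4879 genes, and without frontal cortex replicate 3 it called 4977.

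**Figure D2:**
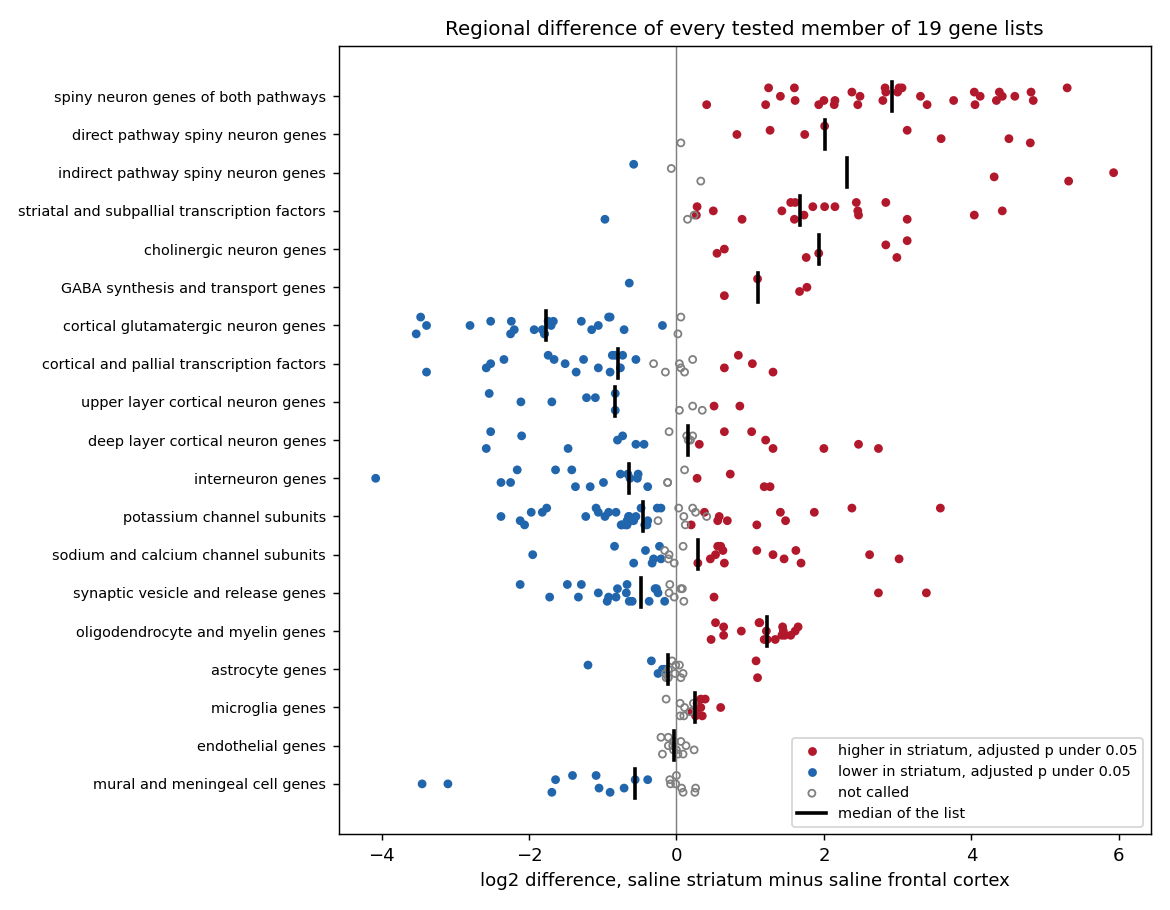
Striatum minus frontal cortex difference in log2 signal (saline) of every tested member of 19 gene lists, with called genes coloured and a black tick at each list's median. The spiny neuron list lies wholly to the right (median 2.92) and the glutamatergic list almost wholly to the left (median -1.77), while the endothelial list sits at -0.04 with none called.

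The dopamine and cAMP cascade held genes of both directions. Of 34 genes listed 31 were tested, and 15 rose and 7 fell, with a median of 0.09; the 7 became 4 without frontal cortex replicate 3. The striatal G protein subunits were higher: Gnal, the olfactory type stimulatory alpha subunit, gave 11.40, 11.41 and 11.35 in striatum, against 9.27, 9.20 and 9.29 in frontal cortex (4.39-fold), and Gng7, its gamma partner in striatum, rose by 3.76. Gnas, the general stimulatory alpha subunit, went the other way and gave 11.43, 11.48 and 11.74, against 12.48, 12.48 and 12.51 (1.92-fold lower). The stimulatory alpha subunits thus differed in opposite directions with no overlap between groups. Regulatory subunits of protein kinase A did likewise, Prkar2b being higher by 1.10 and Prkar1b lower by 1.03, while the catalytic subunits Prkaca (-0.09) and Prkacb (0.09) did not pass. The phosphatase catalytic subunit Ppp1ca, whose inhibitor is DARPP-32, was higher by 1.0, the tyrosine phosphatase STEP gene Ptpn5 by 1.93 and the beta subunit Gnb5, which partners RGS proteins, by 1.16. The inhibitory alpha subunit Gnai1 was lower by 0.77. The calcineurin subunit Ppp3r1 (0.02) and Ppp2ca (0.08), the catalytic subunit of another phosphatase, did not pass by the probe sets used. Other probe sets that reached the filter value read 0.55 for Ppp3r1, and -0.56 and -0.01 for Ppp2ca.

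The cyclases, phosphodiesterases and RGS proteins each split between the regions, as the plot of these 3 families shows. Of 9 adenylyl cyclases 8 were tested: 2 rose and 6 fell (median -0.95). Adcy5, the cyclase of spiny neurons, gave 11.91, 11.91 and 11.81 in striatum, against 8.78, 8.80 and 8.87 in frontal cortex (8.34-fold), and Adcy3 was higher by 0.48. The calcium-stimulated Adcy8 and Adcy1 were lower by 2.03 (limit 1.74) and 1.44, Adcy2 by 1.48, Adcy6 by 1.10, Adcy7 by 0.81 (limit 0.23) and Adcy9 by 0.30. Adcy5 and Adcy3 were thus the only tested cyclases that rose. Of 19 phosphodiesterases 15 were tested, and 10 rose and 4 fell (median 0.55). Pde10a, which breaks down both cAMP and cGMP, gave 12.18, 12.09 and 12.06 in striatum, against 7.98, 7.60 and 8.39 in frontal cortex (17.4-fold). The calmodulin-dependent Pde1b and Pde1c rose by 3.00 and 2.76 (limit 2.04) and their relative Pde1a fell by 1.72. The cAMP-specific Pde7b rose by 2.40 and Pde4d fell by 0.87, and Pde7a fell by 0.56, or by 0.37 without striatum replicate 1. Pde3b did not pass (0.13). Of 19 RGS genes 17 were tested, and 9 rose and 3 fell (median 0.41), the 3 becoming 5 without frontal cortex replicate 2. After Rgs9 came Rgs2 (1.49), Rgs8 (1.48) and Rgs20 (1.03), and Rgs6, Rgs19 and Rgs7 were lower by 1.51, 0.73 and 0.66. Rgs7bp, which anchors this class of RGS protein at the membrane, was higher by 0.76, whereas Rgs5, a pericyte marker, did not pass (0.07).

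**Figure D3:**
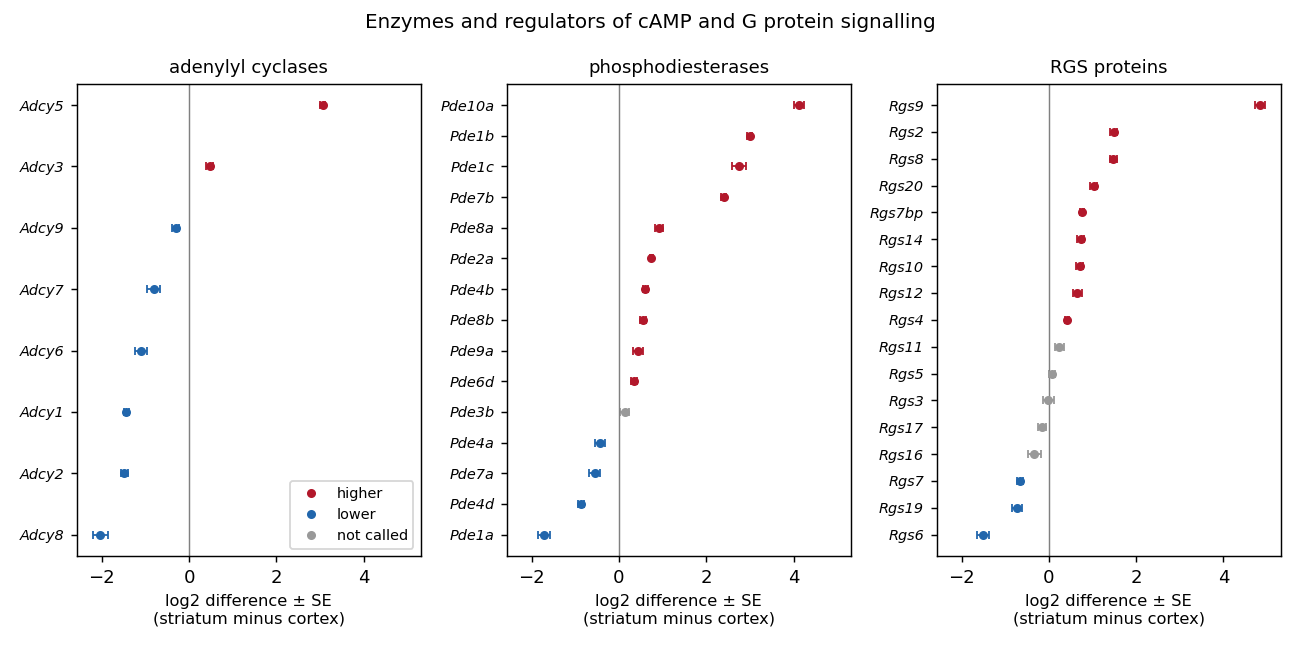
Striatum minus frontal cortex difference in log2 signal, with its standard error, for each tested adenylyl cyclase, phosphodiesterase and RGS gene (saline, n = 3 arrays a region). Adcy5, Pde10a and Rgs9 stand at 3.06, 4.12 and 4.84, while most other cyclases lie under 0.

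Receptors for other transmitters divided as well. Of 27 acetylcholine and serotonin receptors 14 were tested, with 4 higher, 6 lower and a median of -0.13. Htr1b, an inhibitory serotonin receptor that spiny neurons carry to their terminals, gave 9.02, 9.10 and 9.34 in striatum, against 6.02, 5.57 and 6.12 in frontal cortex (9.55-fold). Its relative Htr1d rose by 2.07 and Htr2c by 1.96, and Htr4 by 1.25 (limit 0.21). Against these, the muscarinic Chrm3 was lower by 1.69 (limit 0.78), the nicotinic subunit Chrna4 by 0.92, and the serotonin receptors Htr1a by 1.31, Htr3a by 0.99 (limit 0.61), Htr5a by 0.69 (limit 0.29) and Htr7 by 0.62. The muscarinic Chrm1 read 9.48, 9.48 and 9.50 in striatum, against 9.45, 9.48 and 9.48 in frontal cortex, and did not pass. Of 31 receptors for adenosine, histamine, noradrenaline and peptides 16 were tested, with 5 higher and 9 lower (median -0.70). The adrenergic receptor Adra2c was higher by 1.80, the neurokinin receptor Tacr3 by 1.53 (limit 0.68) and the histamine receptor Hrh3 by 0.61. Cckbr, the brain cholecystokinin receptor, was lower by 2.27, Sstr3 by 1.71 (limit 1.15), Adra1b by 1.57 (limit 1.41), the corticotropin-releasing hormone receptor Crhr1 by 1.44, Hrh1 by 1.42 and the neuropeptide Y receptor Npy1r by 1.20. The listed somatostatin receptors that were tested, Sstr2, Sstr3 and Sstr4, all fell, the others by 0.95 and 0.99.

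Opioid and cannabinoid genes were split. Of 16 genes 13 were tested, with 4 higher and 8 lower (median -0.52). Besides Penk and Pdyn, the kappa receptor Oprk1 gave 7.73, 7.85 and 8.09 in striatum, against 5.75, 5.75 and 6.17 in frontal cortex (4.0-fold), and the cannabinoid receptor Cnr1 gave 11.05, 10.85 and 10.75, against 9.80, 9.60 and 9.66 (2.29-fold). These 4 were the members that rose. The endocannabinoid enzymes fell, among them Faah by 1.79, Napepld by 1.18 (limit 1.01), Mgll by 0.84, Daglb by 0.59 and Abhd6 by 0.52, and so did the nociceptin precursor Pnoc by 1.40 and its receptor Oprl1 by 0.69. The mu receptor gene Oprm1 missed the filter, with 5.62, 4.81 and 5.02 in striatum, against 4.88, 5.11 and 4.85 in frontal cortex, where the groups overlapped.

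Transcription factors of the ventral forebrain were mostly higher in striatum. Of 29 listed 22 were tested, and 19 rose and 1 fell (median 1.67). Of the 19, 6 lay under 5.18 on every frontal cortex array and could be called only as higher. The retinoid receptors Rxrg and Rarb led at 4.42 and 4.04. Foxp2 gave 9.36, 9.36 and 9.24 in striatum, against 7.12, 6.17 and 7.25 in frontal cortex (5.56-fold), its relative Foxp1 was higher by 1.60, and Bcl11b, also called Ctip2, by 2.46. The homeobox genes Six3 and Meis1 were higher by 2.44 and 2.15 (limit 1.34), and Lhx8, a factor of cholinergic neurons, by 2.84 (limit 1.19). Dlx5 and Dlx6 rose by 1.73 and 1.43 (limit 0.27), while Dlx1 gave 5.84, 6.38 and 6.39, against 7.44, 7.03 and 7.04, and was lower by 0.97. Members of the Dlx family thus lay on both sides. Ikzf2 did not pass (0.24). With the filter raised to the 75th percentile, 10 members were called higher.

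The retinoid list, which counts Rxrg and Rarb again and also holds Ttr (5.23), described further on, was less one-sided. Of 20 genes 16 were tested, with 8 higher and 2 lower (median 0.27), and the 2 became 1 without frontal cortex replicate 3. Crabp1, which binds retinoic acid in the cell, was higher by 1.78 (limit 0.27), Rarg by 0.40, Aldh1a1, which makes retinoic acid, by 0.35, the carrier Rbp4 by 0.31 and Rxrb by 0.26. Aldh1a2, another synthetic enzyme, was lower by 1.42 (limit 1.04). Rara did not pass (0.09).

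Pallial transcription factors were mostly lower. Of 30 listed 26 were tested, with 16 lower and 4 higher (median -0.79). On every striatum array 4 of the 16 lay under 5.18, and these could be called only as lower. Neurod6, of cortical projection neurons, gave 4.26, 4.15 and 5.27 in striatum, against 8.16, 7.73 and 7.96 in frontal cortex, a deficit of 3.39 with 2 of the striatum arrays under 5.18. Tbr1, a determinant of deep layer neurons, gave 4.11, 4.24 and 4.59, against 6.97, 6.99 and 6.54, a deficit of 2.52 with a limit of 1.66. Striatum lay under or near the filter value for both, and no arrays overlapped. Fezf2, which specifies subcerebral projection neurons, was lower by 2.58 (limit 2.10), Neurod1 by 2.34 (limit 1.85), Neurod2 by 1.74, Mef2c by 1.66, Nfix by 1.51 and Sox5 by 1.36. The 4 that rose were Tle4 (1.31), Lmo3 (1.03), Pou3f1 (0.84) and the orphan nuclear receptor Nr4a2 (0.65). The 4 other probe sets of Nr4a2 that reached the filter value read 0.14, 0.29, 0.23 and 0.30, with unadjusted p of 0.326, 0.0282, 0.187 and 0.128. Cux2 did not pass by the probe set used (0.22, or 0.24 with adjusted p = 0.0476 without frontal cortex replicate 2), but 2 other probe sets of it read -2.56 and -1.10.

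Cortical layer genes lay on both sides. Of 14 upper layer genes 12 were tested, with 7 lower and 2 higher (median -0.83). Nectin3, an adhesion molecule, was lower by 2.54, the exchange factor Rasgrf2 by 2.11, the netrin receptor Unc5d by 1.69, Lamp5 by 1.22, Cdh6 by 1.10, Rorb by 0.83 and Rspo1 by 0.83. Otof and the calcium buffer Calb1, which spiny neurons also hold, were higher by 0.86 and 0.51. Of 23 deep layer genes 21 were tested, with 8 higher and 8 lower (median 0.16). The higher ones included Syt6, with 7.61, 7.59 and 7.47 in striatum, against 5.29, 4.20 and 4.96 in frontal cortex (2.74, with 2 of the frontal cortex arrays under 5.18), and the thyroid hormone binder Crym (1.02). Of these 8, Foxp2, Tle4, Nr4a2, Pcp4 and Oprk1 also stand on another list above. The lower ones included Grp, the gastrin-releasing peptide (-2.10, limit -1.39), Rprm (-1.47), Parm1 (-0.80) and Deptor (-0.44). Bcl6 was lower by 0.73, or by 0.37 without striatum replicate 1. Cplx3, a complexin of the deepest layer, did not pass (-0.10).

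Genes of cortical glutamatergic neurons were lower almost throughout, with 22 of the 24 tested (of 26 listed) lower, none higher and a median of -1.77. Among the 22, 2 lay under 5.18 on every striatum array. Slc17a7, the vesicular glutamate transporter of cortical neurons, gave 7.50, 8.04 and 8.61 in striatum, against 10.33, 10.23 and 10.34 in frontal cortex (-2.25 ± 0.16 SE, adjusted p = 1.47e-09). Nrn1, the growth factor neuritin, gave 7.57, 8.26 and 8.41, against 11.55, 11.56 and 11.55 (11.1-fold lower). The striatum arrays were spread widely for both, with replicate 1 lowest, while the frontal cortex arrays lay close together. Cbln2, a synapse organiser, was lower by 3.53, the calcium sensor Vsnl1 by 2.20, the secreted protein Ccn3 by 2.24, the zinc transporter Slc30a3 by 1.93, the pentraxin Nptx1 by 1.82 and the vesicle protein Sv2b by 1.29. The subcortical glutamate transporter Slc17a6 was lower too, by 1.70. Camk2a, the kinase of excitatory synapses, fell by 0.71. Chrm1 and Egr3 (0.06) were the 2 members that did not pass.

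GABA genes were higher in striatum except for a transporter of glia. Of 6 genes 5 were tested. Gad2, the smaller glutamate decarboxylase, gave 10.37, 10.44 and 10.42 in striatum, against 8.93, 8.53 and 8.76 in frontal cortex (3.18-fold). Slc32a1, the vesicular GABA transporter, gave 9.95, 10.06 and 9.94, against 8.29, 8.0 and 8.34 (3.42-fold). Gad1, the larger decarboxylase, and the GABA transaminase Abat rose less, by 0.65 and 1.10, and Slc6a11, a GABA uptake carrier, fell by 0.64.

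Interneuron genes went against this, with 15 of the 22 tested (of 29 listed) lower and 4 higher (median -0.64). Vip gave 4.96, 5.75 and 5.82 in striatum, against 9.65, 9.52 and 9.61 in frontal cortex, a deficit of 4.08 ± 0.16 (SE, 16.9-fold). Its probe set had the largest measured fall of the called genes, predicted genes and Riken clones passed over, and the groups lay more than 3 log2 units apart. The fast potassium channel Kcnc2 was lower by 2.38, Satb1 by 2.25, Crhbp, which binds corticotropin-releasing hormone, by 2.16, the neurokinin precursor Tac2 by 1.64 (limit 1.17), the parvalbumin gene Pvalb by 1.37 and the transcription factor Maf by 1.17. Calb2, calretinin, was lower by 1.42 but gave 8.75, 6.86 and 7.01 in frontal cortex, and its deficit was 0.81 without replicate 1 of that region. Npy was lower by 0.76, while somatostatin, Sst, gave 10.55, 10.56 and 10.69 in striatum, against 10.74, 10.63 and 10.81, and did not pass (-0.12, adjusted p = 0.093), although it did without frontal cortex replicate 2 (-0.17, adjusted p = 0.0248) or without striatum replicate 3 (-0.16, adjusted p = 0.0384). Nos1, nitric oxide synthase, was higher by 0.73, and Kit (0.11) did not pass.

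Cholinergic genes, which mark a sparse striatal interneuron, were tested for 7 of 11 listed, and all 7 were called higher. Of these, 5 lay under 5.18 on every frontal cortex array and had passed the filter through striatum alone, so that they had to come out higher. The vesicular acetylcholine transporter Slc18a3 gave 6.02, 6.10 and 5.98 in striatum, against 4.12, 4.44 and 4.25 in frontal cortex (1.76, limit 0.86), and the choline transporter Slc5a7 gave 5.18, 5.28 and 5.35, against 3.23, 3.27 and 3.52 (1.93, limit 0.10). The peptidase Ecel1 was higher by 2.99, acetylcholinesterase, Ache, by 0.65 and the neurotrophin receptor Ngfr by 0.55 (limit 0.22). Chat, the synthetic enzyme of acetylcholine, lay under the filter with 4.09, 3.86 and 4.14 in striatum, against 3.76, 3.80 and 4.10 in frontal cortex. With the filter at the 75th percentile, 2 members remained to be called. Of 15 genes of midbrain dopamine neurons 5 were tested, with 3 higher (median 0.55): Ddc by 1.15, Nr4a2 by 0.65 and Aldh1a1 by 0.35. The defining markers were dim, since the dopamine transporter Slc6a3 read 4.32, 3.70 and 4.01 in striatum, against 4.01, 3.68 and 3.67 in frontal cortex, and Slc18a2 read 4.40, 4.98 and 4.45, against 5.06, 4.39 and 4.33. Tyrosine hydroxylase, Th, gave 5.94, 5.73 and 5.51 in striatum, against 6.28, 4.81 and 4.44 in frontal cortex, and did not pass (0.55, adjusted p = 0.142), but without frontal cortex replicate 1 the difference was 1.10 (adjusted p = 9.65e-06).

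Neuropeptide precursors ranged from 4.31 higher to 4.08 lower, and the plot of transmitter genes gives the arrays. Of 32 listed 22 were tested, with 5 higher and 11 lower (median -0.31). After Penk and Tac1 the neurotensin precursor Nts gave 6.49, 6.85 and 6.96 in striatum, against 4.17, 4.34 and 4.41 in frontal cortex (2.46, limit 1.59), and the granin Scg2 was higher by 0.59. Cck gave 8.91, 9.30 and 9.65, against 12.07, 12.07 and 12.12 (6.98-fold lower). Adcyap1, the PACAP precursor, gave 4.75, 5.06 and 4.60, against 7.58, 7.16 and 7.34 (-2.55, limit -2.18). The appetite peptide Cartpt was lower by 0.83 and the granin Chgb by 0.81, whereas Vgf did not pass (0.00).

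**Figure D4:**
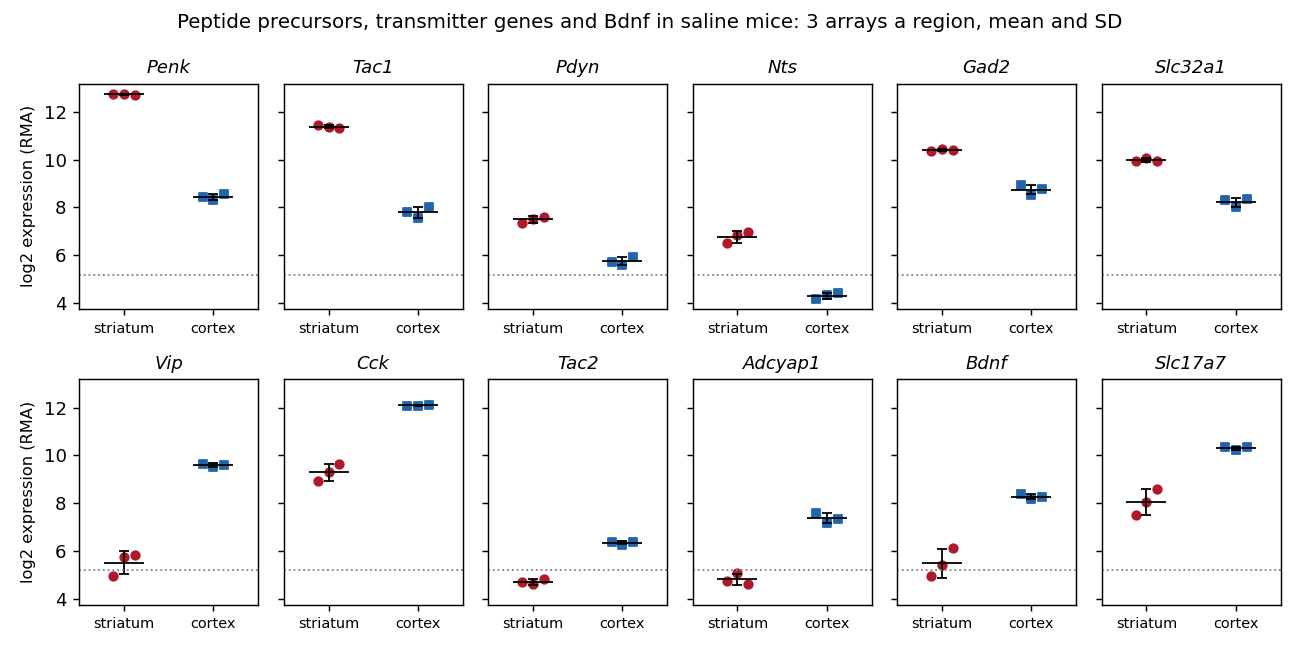
Log2 signal of 12 transmitter and neurotrophin genes on each saline striatum and saline frontal cortex array, with the mean and SD of each region (n = 3). Penk, Tac1, Pdyn, Nts, Gad2 and Slc32a1 are higher in striatum, Vip, Cck, Tac2, Adcyap1, Bdnf and Slc17a7 lower, and no gene shown has overlapping groups.

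Glutamate and GABA receptor subunits exchanged members without a common shift. Of 17 ionotropic glutamate receptor subunits 14 were tested, with 4 higher and 5 lower (median 0.02). Their called share was 64.3%, against 48.2% of all tested genes. The kainate subunit Grik2 was higher by 1.38, the AMPA subunit Gria1 by 0.58, and Grin2a, an NMDA receptor subunit, was lower by 1.25 (limit 0.46), Grin3a by 0.89 and Gria3 by 0.52. Gria2 (0.03) and Grin2b (-0.01) did not pass. Of 7 metabotropic receptors 6 were tested: Grm4 rose by 1.31 and Grm5 by 0.95, Grm8 fell by 0.87, and Grm2, a presynaptic inhibitory receptor, gave 5.53, 6.03 and 5.86 in striatum, against 8.60, 8.64 and 8.46 in frontal cortex (6.79-fold lower). Of 19 GABA-A and glycine receptor subunits 11 were tested, with 4 higher and 5 lower (median 0.15). The extrasynaptic subunit Gabrd was higher by 0.93 and Gabra4 by 0.84, and Gabra3 and Gabra5 were lower by 2.15 and 1.18.

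Potassium channel subunits leaned to frontal cortex and sodium and calcium channel subunits to striatum. Of 52 potassium channel genes 46 were tested, with 11 higher and 28 lower (median -0.46). Kcna5 gave 7.34, 7.97 and 7.94 in striatum, against 4.49, 3.69 and 4.34 in frontal cortex (3.58, limit 2.57), its relative Kcna4 was higher by 1.87, the A-type channel Kcnd2 by 1.09, its partner Kcnip2 by 1.41, the beta subunit Kcnab1 by 2.38, the leak channel Kcnk2 by 1.48 and the inward rectifier Kcnj4 by 0.69. Another beta subunit, Kcnab3, was lower by 2.12, the G protein-gated Kcnj3 and Kcnj9 by 2.06 and 1.82, Kcnc4 by 1.97 and Kcnh7 by 1.76. Kcnip3 did not pass (0.03). Of 32 sodium and calcium channel genes 27 were tested, with 14 higher and 8 lower (median 0.29), and the 8 became 5 without frontal cortex replicate 1. After Scn4b came Cacng4, an AMPA receptor auxiliary subunit, with 9.30, 9.33 and 9.31 in striatum, against 6.73, 6.60 and 6.73 in frontal cortex (6.16-fold). The T-type channels differed in direction, Cacna1h being higher by 1.62 and Cacna1g lower by 1.95. The auxiliary subunits Cacna2d2, Cacna2d3 and Cacnb2 were higher by 1.69, 1.46 and 1.09, Cacna2d1 was lower by 0.84, and Scn2a (-0.11) did not pass.

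Presynaptic genes were mostly lower and postsynaptic genes were split. Of 32 vesicle and release genes 28 were tested, with 19 lower and 3 higher (median -0.48). The syntaxin Stx1a gave 9.25, 9.43 and 9.60 in striatum, against 11.60, 11.56 and 11.46 in frontal cortex (4.33-fold lower), and the release factors Doc2a, Rims3 and Rims1 were lower by 1.72, 1.48 and 1.06 and the vesicle proteins Vamp1, Syp and Syn1 by 1.33, 0.94 and 0.92. The 3 that rose were Doc2b, a calcium sensor of release, Syt6 and the complexin Cplx2 (0.51). Doc2b gave 9.21, 9.38 and 9.22, against 5.88, 5.84 and 5.90 (10.5-fold), opposite in direction to its relative Doc2a. Of 29 postsynaptic density and calcium kinase genes 24 were tested, with 11 higher and 11 lower (median 0.02). The calcium sensors Caln1 and Hpca were higher by 1.76 and 1.08, the kinase-like Camkv by 0.96, the scaffolds Shank3 and Dlgap3 by 0.85 and 0.74, and Camk2b by 0.75. The scaffolds Homer2 and Dlgap1 were lower by 1.79 and 1.76, the calcium sensor Ncald by 1.66 and the kinases Camk2g and Camk2d by 1.54 and 1.09. Arc did not pass (-0.39, adjusted p = 0.0994), but did without frontal cortex replicate 1 (-0.69, adjusted p = 0.00016) or without striatum replicate 3 (-0.45, adjusted p = 0.0343).

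Guidance and trophic genes were mixed. Of 18 Eph receptors and ephrins 16 were tested, with 5 higher and 6 lower (median -0.20): Efnb3 was higher by 1.84 and Ephb1 by 0.88, and Ephb3, Epha5 and Ephb6 were lower by 1.34, 1.10 and 1.02. The called share of this list was 68.8%, against 48.2% of all tested genes. Of 33 semaphorins, plexins, netrins, slits and their receptors 32 were tested, with 9 higher and 13 lower (median -0.17). The netrin receptor Dcc gave 8.23, 8.30 and 8.18 in striatum, against 6.39, 5.95 and 6.46 in frontal cortex (3.90-fold), and its ligand Ntn1 was higher by 0.86. The plexins Plxna1 and Plxnc1 were lower by 1.61 and 1.20 and the ligand Slit2 by 1.58, while Slit3 was higher by 0.85. Of 25 neurotrophic factors and receptors 17 were tested, with 6 higher and 8 lower (median -0.24). Bdnf, which cortical axons deliver to the striatum, gave 4.93, 5.39 and 6.14 in striatum, against 8.37, 8.19 and 8.27 in frontal cortex (6.91-fold lower), with 1 striatum array under 5.18. Gdnf, a survival factor of dopamine neurons, gave 5.33, 5.13 and 5.41, against 3.67, 3.80 and 3.76 (1.55, limit 0.11), its receptor Gfra1 was higher by 0.84, and Gfra2, the receptor of its relative neurturin, was lower by 3.03, and the ligand Nrtn was higher by 0.77. Ntrk2, the receptor of Bdnf, was lower by 0.35 by its probe set, and 3 of its other probe sets that reached the filter value read 0.13, 0.13 and 0.25.

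Immediate early genes, which neurons switch on with activity, did not move together. Of 28 listed 27 were tested, with 8 higher and 8 lower (median 0.12), the 8 higher becoming 5 without frontal cortex replicate 2 and 12 without striatum replicate 1. The called share was 59.3%, against 48.2% of all tested genes. Fos gave 7.98, 8.75 and 8.26 in striatum, against 9.04, 8.90 and 9.19 in frontal cortex (1.64-fold lower). Besides Bdnf, Ier2, Dusp6 and Ier5 were lower by 1.08, 0.81 and 0.69, Jun by 0.60 and the pentraxin Nptx2 by 0.59, and Rgs2, Gadd45g and Jund were higher by 1.49, 0.48 and 0.37. Egr1 read 11.78, 11.79 and 12.09, against 11.92, 11.55 and 11.86, and overlapped.

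Glial lists separated by lineage. All 18 tested genes of 22 listed for oligodendrocytes and myelin rose, with a median of 1.22. Of the 18, 1 lay under 5.18 on every frontal cortex array and could be called only as higher. Mobp, a myelin protein, gave 12.13, 12.21 and 12.17 in striatum, against 10.43, 10.32 and 10.82 in frontal cortex (3.13-fold). Mal, Mag, Ugt8a and Mog, of the myelin sheath and its lipids, were higher by 1.47, 1.45, 1.44 and 1.43, the lineage factors Sox10 and Olig2 by 0.88 and 0.53, and Mbp by 0.47. Summed on the linear scale and returned to log2, the list lay at 14.83 to 14.90 on the striatum arrays, against 13.81 to 14.04 on the frontal cortex arrays. Of 10 precursor genes 9 were tested, with 6 higher and 1 lower, but the defining markers Pdgfra (0.11) and Cspg4 (0.19) did not pass. Among 17 astrocyte genes tested, 2 rose, the bicarbonate transporter Slc4a4 (1.08) and angiotensinogen, Agt (1.10), and 5 fell, with the gap junction gene Gjb6 lowest at -1.20. Gfap (-0.11), the water channel Aqp4 (-0.15) and the glutamate transporter Slc1a2 (-0.06) did not pass. The called share of astrocyte genes, 41.2%, was under the 48.2% of all tested genes. Of 18 microglia genes 16 were tested and 9 rose, all by 0.60 or less (median 0.25), led by Ly86, Trem2 (0.39) and Tyrobp (0.35). With the spread taken from all 18 arrays, 5 members were called higher.

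Vascular and border cells differed from each other. None of the 14 tested endothelial genes of 17 listed was called, and their summed level was 11.35 to 11.45 in striatum, against 11.33 to 11.42 in frontal cortex; Flt1 had the widest gap (0.24, adjusted p = 0.0697), and 1 member was called without striatum replicate 1. Of 20 mural and meningeal genes 19 were tested and 11 fell (median -0.56). These were genes of fibroblasts and the meninges, led by the matrix protein Fmod, with 4.87, 5.18 and 4.41 in striatum, against 8.16, 8.46 and 8.19 in frontal cortex (-3.45, with 2 of the striatum arrays under 5.18 and the other at it), and Islr, with 4.25, 4.49 and 4.22, against 7.70, 7.36 and 7.20 (-3.10, limit -2.24). The transporter Slc6a13, osteoglycin, Ogn, and the collagen gene Col1a2 were lower by 1.69, 1.64 and 1.41, while the smooth muscle and pericyte markers Acta2 (-0.08), Rgs5 (0.07) and Pdgfrb (0.09) did not pass. Of the 11 that fell, 3 lay under 5.18 on every striatum array and could be called only as lower. The list summed to 11.41 to 11.50 in striatum, against 11.88 to 11.94 in frontal cortex, and its part in other genes lower in striatum was not tested.

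Ttr, transthyretin, the main secretory product of the choroid plexus in the ventricle beside the striatum, gave 10.14, 10.61 and 10.20 in striatum, against 4.12, 4.96 and 6.16 in frontal cortex, a difference of 5.23 with 2 of the frontal cortex arrays under 5.18. The frontal cortex arrays spread more than for most genes. Of 18 choroid plexus and ependymal genes 6 were tested and 5 rose, the others being Clic6 (1.29), Ccdc153 (1.10, limit 0.43), the chemerin precursor Rarres2 (0.87) and Foxj1 (0.42, limit 0.02), which missed the threshold without striatum replicate 3 (0.40, adjusted p = 0.0541). Another probe set of Clic6 that reached the filter value read 3.55. Of the 5, Ccdc153 and Foxj1 lay under 5.18 on every frontal cortex array. The list summed to 10.67 to 11.03 in striatum, against 8.61 to 8.76 in frontal cortex. The defining markers Aqp1, Folr1, Kl, Kcnj13 and Otx2 were under the filter value in both regions. The part of choroid plexus tissue in other genes higher in striatum was not tested. Of 18 genes of neighbouring subcortical regions 9 were tested, with 2 higher and 2 lower (median 0.12), and of the 2 higher 1 was left without striatum replicate 3 or without frontal cortex replicate 3. The called share of these genes, 44.4%, was under the 48.2% of all tested genes. Baiap3, of hypothalamic and brainstem neurons, was higher by 1.81, and Prkcd, of the thalamus, did not pass (0.22).

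Housekeeping lists differed by little. Of 34 complex I subunits, the part of the respiratory chain that the MPTP metabolite blocks, 31 were tested, with 7 higher by 0.40 at most, 1 lower and a median of 0.01. The share of complex I genes higher was that of all tested genes, 22.6%, and its counts moved with the processing, between 5 and 12 higher and between 0 and 5 lower. The 1 lower became 3 without frontal cortex replicate 2. Ndufa1 was the largest (0.40). Of 32 ribosomal protein genes 21 were tested, with 10 higher and 1 lower (median 0.13), the 1 lower becoming 2 without frontal cortex replicate 1 and 0 without replicate 3, and the 10 higher becoming 5 without the intensity trend. Rps9 and Rps19 were higher by 0.42 and 0.39, and probe sets disagreed for Rpl22 (0.35, another -0.36) and Rps3 (0.17, another -0.56).

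Several leading genes stood on no list. Nexn, an actin-binding protein, gave 8.94, 8.93 and 8.63 in striatum, against 4.10, 4.82 and 4.27 in frontal cortex (4.44, limit 3.66), and Sh3rf2, a ubiquitin ligase relative, gave 8.74, 8.49 and 7.94, against 4.27, 4.25 and 4.54 (4.04, limit 3.22). Dmkn, an epidermal secreted protein, was higher by 3.76 (limit 2.79). All lay under 5.18 on the frontal cortex arrays. On the other side, Myl4, an atrial myosin light chain, gave 5.03, 5.30 and 5.07 in striatum, against 8.56, 8.33 and 8.77 in frontal cortex, but another probe set of it read 0.02. Tafa1, a secreted neuronal protein, was lower by 3.28, Car10, a catalytically inactive carbonic anhydrase relative, by 3.26, the formin Fhod3 by 3.20, the cardiac troponin Tnnc1 by 3.18, Pdzrn3 by 3.01, Frzb, a Wnt antagonist, by 3.02 (limit 2.21), Medag by 2.94 (limit 2.08), the phosphatase Ptpn3 by 2.65 and C1ql3, a synaptic adhesion protein, by 2.63. Of the 40 leading genes, 20 each way, 39 were tested and called in the same direction under each of the 17 other settings tried, and Medag likewise under the 16 that tested it.

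The midbrain arrays of the 3 saline mice, which entered no test here, place the large differences. Of the 97 called genes higher in striatum by at least 2, the midbrain mean lay nearer that of frontal cortex for 82 and nearer that of striatum for 15. Of the 94 lower by at least 2, it lay nearer frontal cortex for 42 and nearer striatum for 52. For the 97, the midbrain mean lay below both regions for 31 and above both for 2. Among the 94 it lay below both for 27 and above both for 10. Gpr6 averaged 3.20 in midbrain and Drd1 4.78, under the filter value, whereas Drd2 averaged 6.95. Nrn1 averaged 10.63 and Cbln2 8.29 in midbrain, near their frontal cortex means of 11.55 and 8.46, whereas Neurod6 and Tbr1 lay under 5.18 there.

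Striatum minus frontal cortex was also measured in the 3 MPTP-treated mice, with arrays that the saline comparison did not use. There 5702 genes (49.5%) were called, with 2187 higher and 3515 lower. The unadjusted p was under 0.05 for 6387. Called higher under both treatments were 1841 genes, which is 70.8% of those higher in saline and 84.2% of those higher in MPTP mice, and called lower under both were 2640, or 89.4% of the saline and 75.1% of the MPTP lists. Opposite calls were made for 8 genes. All 931 genes called in saline mice with a difference of at least 1 had the same sign in MPTP mice, and 929 of them were called there. The MPTP differences were 4.86 for Drd1, 5.91 for Drd2, 4.43 for Penk, 6.54 for Gpr6 and 3.92 for Tac1, and -4.90 for Vip, -3.75 for Cck, -3.66 for Slc17a7 and -4.64 for Nrn1. The plot of MPTP against saline differences shows the tested genes along the diagonal.

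**Figure D5:**
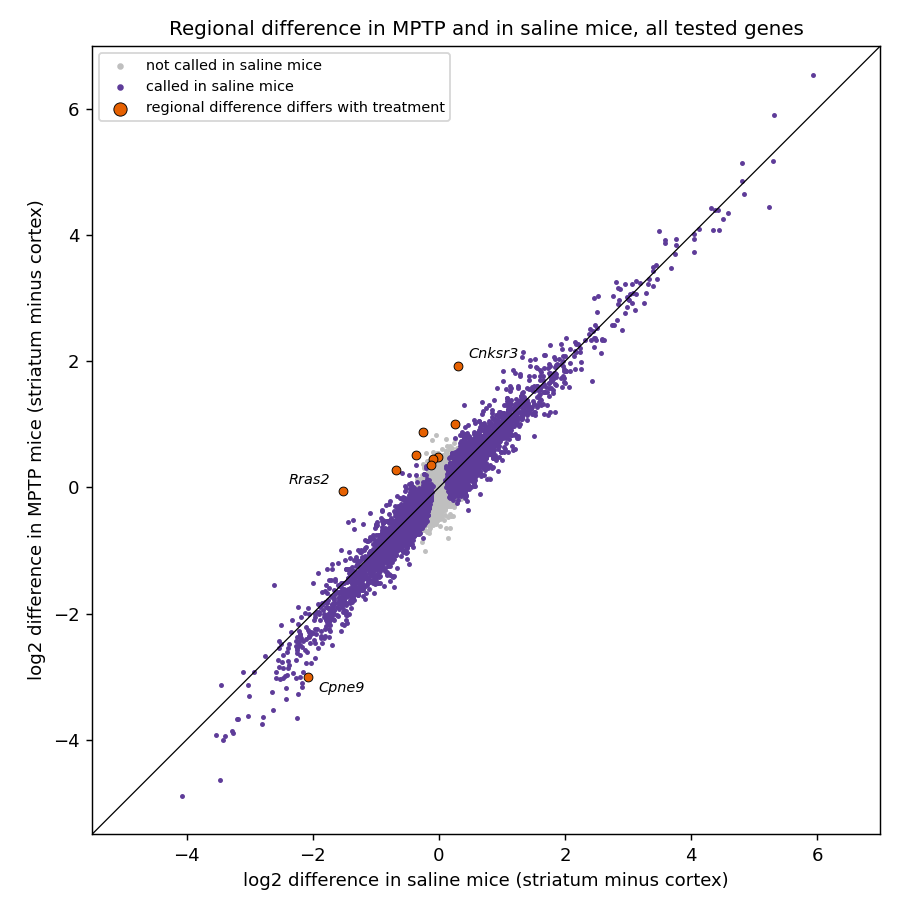
Striatum minus frontal cortex difference in log2 signal in MPTP mice (vertical axis) against that in saline mice (horizontal axis) for the 11516 tested genes, with 3 arrays a group. The 10 genes with the smallest interaction p, predicted genes and Riken clones passed over, are drawn in orange, and Cnksr3, Rras2 and Cpne9 are labelled.

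The difference of the regional differences itself was tested over the 12 arrays. It was called for 11 genes, or 0.0955% of those tested, 10 of them with a more positive striatal difference in MPTP mice, and 1155 genes had an unadjusted p under 0.05. Cnksr3, of a family of Ras pathway scaffolds, differed by 1.93 in MPTP mice and 0.30 in saline mice (interaction 1.63, adjusted p = 0.000423). Rras2, a small GTPase, differed by -0.06 in MPTP mice and -1.52 in saline mice (interaction 1.47, adjusted p = 0.000728), where the saline striatum arrays read 4.82, 5.00 and 4.68, under the filter value. Cpne9, a calcium-dependent membrane-binding protein, differed by -3.01 in MPTP mice and -2.08 in saline mice (interaction -0.93, adjusted p = 0.000989). These 3 kept the call when any 1 of the 12 arrays was left out. The number of calls was 3 without frontal cortex saline replicate 3 or without frontal cortex MPTP replicate 3, 4 without frontal cortex saline replicate 1, 5 without striatum MPTP replicate 1, 6 without striatum saline replicate 2 and 17 without frontal cortex MPTP replicate 1. None of the spiny neuron, glutamatergic or myelin genes named above was among the 10 with the smallest p.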

How the data were processed

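Total RNA from dissected tissue was labelled as cRNA and hybridised to Affymetrix arrays, per the labels' protocols. The deposited values are log2 signals for 45101 probe sets, made by the authors with RMA, which corrects background, quantile-normalizes and summarises probes, per the submitters' processing notes, whose version is not given in the sources used here. This normalization forces the arrays onto a common distribution, so differences are relative to the other genes, and the number of arrays limits the precision. Groups came from the array titles. The members and gene lists were chosen with earlier results of these data known.

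Probe sets were named through GEO's platform annotation: 34958 had 1 gene, 932 several and 9211 were not listed, and symbols were updated by Entrez ID to the RefSeq annotation of GRCm38.p6 for 34754, with 204 keeping the older symbol. Of 18194 genes, 9012 had several probe sets, and the one with the highest mean over the 18 arrays was used. Genes whose mean in either saline region reached 5.18 were tested with limma 3.58.1 in R 4.3.3 (lmFit and eBayes with an intensity trend, Benjamini-Hochberg adjustment over 11516 genes, threshold 0.05), on the 6 saline arrays, on the 6 MPTP arrays and, for the interaction, on these 12. The code was tested on simulated data. Named genes were the 20 largest called differences each way, up to 8 called members each way and up to 4 not called in each list, members whose role orders a list, the 10 smallest interaction p and the 8 widest ranges within a region. Predicted genes and Riken clones entered the totals but were passed over in ranking the differences, the interaction p and the ranges. The ranges were ranked among genes at or above 5.18 on all 3 arrays of the region. Levels under 5.18 on all arrays of a region were taken to give only a limit for the difference, computed with that value in place of the dim mean. Alternatives covered the filter, normalization, probe set choice, variance model, arrays used for the spread, replicate number and leaving out each array.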

Additional observations from a re-analysis of the deposited data

Results flagged for a closer look

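For 10 genes the striatum minus frontal cortex difference in MPTP mice was set against that in saline mice by a test of the interaction in limma (12 arrays, adjusted over 11516 genes). Cnksr3 had an interaction of 1.63 (adjusted p = 0.000423): it averaged 7.77 ± 0.10 in MPTP striatum and 5.84 ± 0.16 in MPTP frontal cortex (SD, n = 3), and gave 5.77, 6.14 and 6.21 in saline striatum, against 5.67, 5.67 and 5.88 in saline frontal cortex. Rras2 had 1.47 (adjusted p = 0.000728), with 6.62 ± 0.18 in MPTP striatum and 6.68 ± 0.15 in MPTP frontal cortex (SD, n = 3), and 4.82, 5.00 and 4.68 in saline striatum, against 6.46, 6.34 and 6.28 in saline frontal cortex. Cpne9 had -0.93 (adjusted p = 0.000989), with 6.09 ± 0.13 in MPTP striatum and 9.10 ± 0.06 in MPTP frontal cortex (SD, n = 3), and 6.86, 6.95 and 6.91 in saline striatum, against 9.03, 8.93 and 9.0 in saline frontal cortex. Leaving out 1 array at a time, their interactions ran from 1.5 to 1.71, from 1.38 to 1.56 and from -1.0 to -0.87, with adjusted p of at most 0.0028, 0.00435 and 0.009.

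The other 7 were all more positive in MPTP mice and each lost the call in some of the fits that left out 1 array. The transmembrane hyaluronidase gene Cemip2 had 1.15 (adjusted p = 0.0183), its difference being 0.88 in MPTP mice and -0.26 in saline mice. The intermediate filament gene Vim had 0.89 (adjusted p = 0.0225), with 0.52 in MPTP mice and -0.37 in saline mice. Marcksl1 had 0.95 (adjusted p = 0.0255), with 0.27 and -0.68 in MPTP and saline mice, and its relative Marcks, a membrane and actin-binding kinase substrate, had 0.48 (adjusted p = 0.0269), with 0.35 and -0.13. Nfasc, an axonal adhesion molecule, had 0.74 (adjusted p = 0.0255), with 1.0 in MPTP mice and 0.26 in saline mice. The growth factor binding protein gene Igfbp5 had 0.54 and clusterin, Clu, 0.49 (adjusted p = 0.0255 each), the saline differences being -0.09 and -0.01. Their adjusted p values reached 0.0819 for Cemip2, 0.0831 for Vim, 0.101 for Nfasc, 0.0904 for Igfbp5, 0.109 for Marcksl1, 0.112 for Clu and 0.114 for Marcks, and without frontal cortex saline replicate 3 or frontal cortex MPTP replicate 3 all 7 missed the threshold. The cause of these differences was not tested.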

How the results depend on the processing

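Of the 377 named genes called between saline striatum and saline frontal cortex, 328 kept call and direction under each of the 17 other settings that tested them and 49 lost one or the other in at least 1. With the filter at the 75th percentile 93 of the 377 were not tested. The direction turned for 3 named genes when a gene's probe sets were averaged in place of taking the brightest: Ppp2ca at -0.16, Cux2 at -1.15 and Rps3 at -0.20. The number of genes called lay between 4105 and 6134 in saline mice (4879 to 5546 with 1 array left out) and between 4123 and 5971 in MPTP mice (4858 to 5603), within 1.5 times the reported counts. The share of saline calls that were higher in striatum was 46.8% and lay between 39.5%, with each array centred on its median, and 49.5%; in MPTP mice it was 38.4%. The 11 interaction calls became 7 with the filter at the 75th percentile, where fewer genes were tested, 25 after a second quantile normalization, 6 with the probe set mean, 5 without the intensity trend or with the spread from all 18 arrays, 18 with robust variance estimation, 20 with array weights, and 3 to 17 with 1 array left out; the cause was not tested. With the stricter filter, 17 of the glutamatergic, 3 of the mural and meningeal and 1 of the choroid plexus genes were called. With the replicate number as a block, 5144 genes were called in saline mice, 5108 of them shared, 5610 in MPTP mice and 11 by interaction, 8 of them shared. Same-numbered saline samples deviated with correlations of -0.123, -0.191 and 0.148, and striatum replicate 1 correlated best with frontal cortex replicate 2 (0.298). The labels do not say which samples came from 1 mouse, and no pairing was used. Outside the stricter filter, counts of list members that moved by over 1.5 times included immediate early genes higher (8, from 4 with the probe set mean to 12), complex I genes higher (7, up to 12 after a second quantile normalization) and lower (1, from 0 without the intensity trend to 5 with each array centred), ribosomal genes higher (10, down to 5 without the trend), microglia genes higher (9, down to 5 with the spread from all 18 arrays), dopamine and cAMP genes lower (7, 4 to 9), sodium and calcium channel genes lower (8, 5 to 9), astrocyte genes lower (5, 3 to 7) and vesicle genes higher (3, 5 without a filter). With 3 arrays a group, signal under 5.18 and lists with many members under the filter limit what could be measured.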

Other observations

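Arrays of 1 region differed most in a few genes, named by their range over 3 arrays. The skeletal actin gene Acta1 ranged over 2.23 in striatum, with 6.53, 8.76 and 6.79, against 7.59, 7.59 and 7.57 in frontal cortex, and the heat shock gene Hspa1b over 1.47, with 5.70, 5.66 and 7.13, against 8.12, 7.90 and 8.23. The glucocorticoid-inducible kinase gene Sgk1 gave 9.31, 10.20 and 10.71 in striatum, against 8.92, 9.35 and 9.87 in frontal cortex. C1ql3, Cyp26b1, which degrades retinoic acid, Bcl6, Zbtb16 and Nr4a3 ranged over 1.46, 1.31, 1.23, 1.15 and 1.14 in striatum. In frontal cortex Calb2 ranged over 1.89, and the fatty acid binding protein gene Fabp7 over 1.26, with 9.62, 8.38 and 8.36. Doc2g gave 6.73, 5.51 and 5.52 there, so that Calb2, Fabp7 and Doc2g were all highest in replicate 1. Aif1l, Stap2, Arc, Prdm8 and Foxp2 ranged over 1.24, 1.15, 1.13, 1.13 and 1.08.

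Other probe sets gave a check within the arrays. The called named genes had 344 further probe sets that reached the filter value, over 190 genes, and 326 of them lay on the same side of 0 as the chosen probe set. For the 20 largest differences each way it was 26 of 27, the exception being Myl4.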
